A study of Homo sapiens with 6 samples.

Results

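Mucin-type O-glycosylation in 12Z cells was described here through 10 genes, which are 8 polypeptide GalNAc transferases (GALNT1, GALNT2, GALNT3, GALNT5, GALNT6, GALNT7, GALNT10 and GALNT11), the core 1 synthase C1GALT1 and its chaperone C1GALT1C1. The set was drawn up with earlier results of these data known. Its genes were looked up by symbol, and all 10 were found among the 16279 genes of the deposited tables. 12Z is a long-used line of human endometriotic epithelial cells, so every library comes from the same line in culture. RNA was sequenced from cells without treatment (Control, labelled NC, n = 3) and from cells given 10 ng/mL recombinant human chemerin (rhChemerin, n = 3), an adipokine, for 48 h. The labels call the replicates biological but do not say that they came from separate cultures, so that p-values measure only the spread between these libraries.

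Mucin-type O-glycans are sugar chains on serine and threonine residues of secreted and cell-surface proteins. GalNAc transferases in the Golgi start each chain by moving N-acetylgalactosamine from UDP-GalNAc to the protein, and the isoenzymes differ in the sites they prefer. Most act on bare peptide, while some, such as GALNT7 and GALNT10, prefer peptides that already carry a GalNAc. C1GALT1 then adds galactose to make the core 1 disaccharide, and C1GALT1C1 (Cosmc) is the chaperone of the endoplasmic reticulum that C1GALT1 needs to fold. In endometrial epithelium, mucins that carry such glycans line the surface that an embryo meets.

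The counts of a library summed to between 35430881 and 38341643. Over 13311 tested genes, Pearson correlations of log2 CPM were 0.983 to 0.990 within the Control group and 0.960 to 0.985 within the rhChemerin group, and the 2 lowest of the rhChemerin group both involved replicate 3. The keratins KRT8, KRT18 and KRT19 were abundant, with KRT8 at 748 to 966 FPKM (reads scaled to gene length and to the library total). Of the other epithelial markers, CDH1 and EPCAM lay under 1 FPKM in every library, CLDN4 at 0.354 to 1.31, KRT7 at 1.19 to 2.01 and MUC1 at 6.79 to 14.4 FPKM. Among the stromal markers, the collagen COL1A1 lay at 728 to 1165 FPKM and DES at 0.174 to 1.07 FPKM. The summed FPKM of the 8 epithelial markers was 1597 to 1867 in Control and 1761 to 1977 in rhChemerin libraries, and that of the 8 stromal markers 1603 to 2071 and 1131 to 2198. The epithelial sum is nearly all keratin, and its genes did not go one way. KRT8 and KRT19 were higher in every rhChemerin library than in any Control library on scaled counts, with log2 fold changes of 0.29 and 0.27, while CDH1 at -1.14 and EPCAM at -1.46 were lower in every one, on 7 to 65 counts (edgeR adjusted p from 0.165 to 0.209 for these 4). The stromal genes did not go one way either. DES at -2.09 was lower and PDGFRA at 0.79 higher in every rhChemerin library on scaled counts (edgeR adjusted p = 0.0707 and 0.124). DESeq2 called both (adjusted p = 1.79e-05 and 0.0206), against 9.05% of all genes to which it gave an adjusted p. In the other stromal markers the groups overlapped. The endothelial markers summed to at most 0.691 FPKM, and of the immune markers PTPRC was near 0 while CD68 reached 134 FPKM. The endothelial VWF at -1.97 was lower in every rhChemerin library on scaled counts, on 13 to 159 counts (edgeR adjusted p = 0.117, DESeq2 adjusted p = 0.00489). The part of these levels in the results was not tested, and in bulk RNA fewer cells of a kind and less RNA per cell cannot be told apart.

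Sequence upstream of the start is shown for 4 genes on which the results turn. These are GALNT2, the most abundant transferase, GALNT7, which has the largest log2 fold change of the 10 genes, and the core 1 pair. They are taken from the RefSeq promoter windows on GRCh38.p14, cut before the first annotated exon base, and read 5′ to 3′ on the strand of the gene. The starts of GALNT2 and C1GALT1 used by RefSeq lie inside the longer spans that GENCODE release 29 gives these genes. Capitals mark GGGCGG or its reverse complement CCGCCC.
GALNT2, upstream sequence, chr1:230066988-230067208, plus strand: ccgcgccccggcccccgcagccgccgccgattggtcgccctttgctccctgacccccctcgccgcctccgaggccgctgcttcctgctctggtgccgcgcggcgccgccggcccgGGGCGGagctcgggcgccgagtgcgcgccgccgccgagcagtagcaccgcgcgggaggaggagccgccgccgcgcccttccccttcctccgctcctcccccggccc
GALNT7, upstream sequence, chr4:173168561-173168752, plus strand: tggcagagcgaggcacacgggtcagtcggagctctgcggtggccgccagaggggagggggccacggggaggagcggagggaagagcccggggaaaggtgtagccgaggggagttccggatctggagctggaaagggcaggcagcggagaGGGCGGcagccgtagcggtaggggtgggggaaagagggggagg
C1GALT1, upstream sequence, chr7:7182294-7182543, plus strand: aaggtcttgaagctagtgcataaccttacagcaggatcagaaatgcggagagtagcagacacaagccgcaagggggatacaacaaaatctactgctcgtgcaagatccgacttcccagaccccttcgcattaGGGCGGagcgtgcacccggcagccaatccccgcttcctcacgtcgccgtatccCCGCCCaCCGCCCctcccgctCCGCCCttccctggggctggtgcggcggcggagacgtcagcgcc
C1GALT1C1, upstream sequence, chrX:120630151-120630304, minus strand: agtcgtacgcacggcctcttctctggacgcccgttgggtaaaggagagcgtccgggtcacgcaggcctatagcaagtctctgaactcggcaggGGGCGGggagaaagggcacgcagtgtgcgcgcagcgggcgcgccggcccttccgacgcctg

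Windows of 300 bases, from 250 before to 50 after a RefSeq start, were found for 8 of the 10 genes, and 3 of the windows belong to GALNT1. GGGCGG, on either strand, was present in 45.0% of all 35116 windows. It occurred 1 time in the windows of GALNT2 and GALNT7, 2 times in that of GALNT3 and 4 times in those of GALNT10, C1GALT1 and C1GALT1C1. There was no match in the window of GALNT11, and 0, 1 and 5 matches in the 3 windows of GALNT1. CCAAT, on either strand, occurred 1 time in the windows of GALNT2, GALNT3, GALNT7 and C1GALT1 and in 1 window of GALNT1, against 34.6% of all windows. TATAAA, in 11.5% of all windows on either strand, had no match in any window of these genes. The GC content ran from 51.3% in the window of GALNT11 to 86.0% in 1 window of GALNT1, against a median of 58.7% over all windows. It was 82.0% for GALNT2 and 69.7% for GALNT7. A match describes the letters of a window and is not evidence of binding.

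The transferase transcripts of 12Z cells were dominated by GALNT2, an enzyme of broad peptide specificity. On the FPKM scale, which is per length and so allows levels of different genes to be compared, GALNT2 averaged 59.4 ± 1.72 (SD, n = 3) in Control cells. GALNT10 followed with 21.5 ± 2.10 (SD, n = 3), then GALNT1, the other widely expressed starter, with 10.3 ± 0.901 (SD, n = 3). GALNT11, known for glycosylating LDL receptor family proteins and Notch, stood at 7.38 ± 0.260 (SD, n = 3) and GALNT6, a close relative of GALNT3, at 5.43 ± 0.668 (SD, n = 3). GALNT7 was the lowest of the 6 well-detected transferases among the 10 genes, with 3.12 ± 0.128 (SD, n = 3). GALNT12, which is not among the 10 genes, stood at 5.98 ± 0.728 (SD, n = 3) in Control cells. GALNT3, which protects the hormone FGF23 from cleavage, had a mean of 0.163 FPKM from 16 to 63 counts per library, and GALNT5 a mean of 0.0585 FPKM from 6 to 26 counts per library. C1GALT1C1, with 16.0 ± 1.00 (SD, n = 3), lay between GALNT10 and GALNT1, and C1GALT1, with 4.90 ± 0.0597 (SD, n = 3), between GALNT6 and GALNT7.

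No neighbours in this order had overlapping ranges in Control cells. In rhChemerin-treated cells the order was the same except that GALNT7 stood in the sixth place in place of the eighth, above GALNT6 and C1GALT1, and there the ranges of GALNT11 and GALNT7, of GALNT7 and GALNT6 and of GALNT6 and C1GALT1 overlapped. Among the 13311 tested genes, GALNT2 had a higher mean FPKM than 92.6% and GALNT10 than 77.9%. For GALNT3 and GALNT5 the shares were 4.14% and 0.932%.

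**Figure D1:**
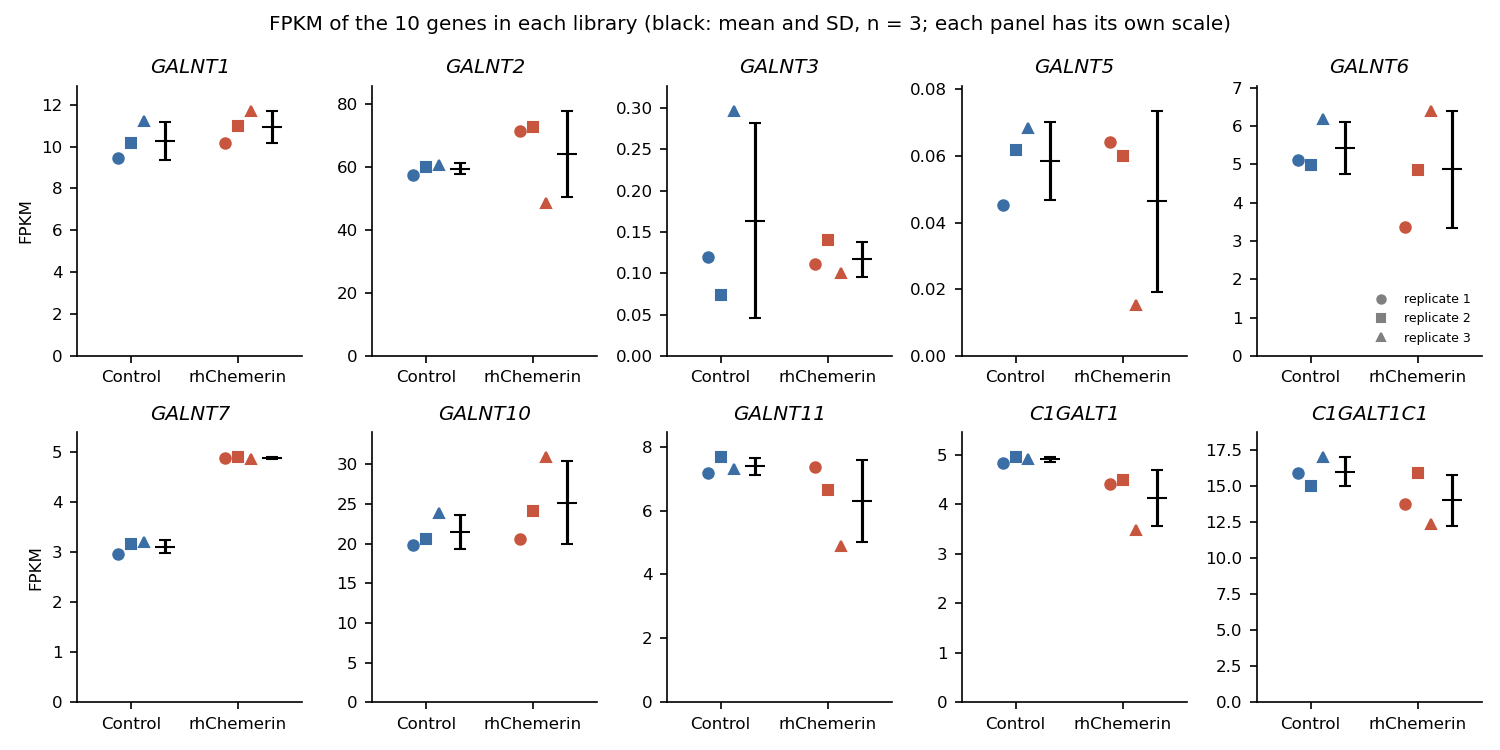
FPKM (vertical axis, from 0, own scale per panel) of each of the 10 genes in the 3 Control and 3 rhChemerin libraries, 1 point per library, with the mean and SD in black. In GALNT7 all 3 rhChemerin libraries lie between 4.86 and 4.90 FPKM, above the Control libraries at 2.97 to 3.20, and in GALNT2 rhChemerin replicate 3 lies below every other library.

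On the log2 scale GALNT7 had the largest difference between the groups among the 10 genes, and the smallest p. Its FPKM was 2.97, 3.18 and 3.20 in Control replicates 1 to 3 and 4.89, 4.90 and 4.86 in rhChemerin replicates 1 to 3. The groups did not overlap, and the gap between them was far wider than the range within either. The counts behind these values were 787 to 873 in Control and 1331 to 1404 in rhChemerin libraries. The log2 fold change was 0.78 ± 0.09 (SE), a fold of 1.72. The adjusted p was 0.0574 from edgeR's quasi-likelihood test (Benjamini-Hochberg), just short of the threshold of 0.05. Only 9 of the 13311 tested genes had a smaller p. DESeq2 gave an adjusted p of 7.00e-09, and over all alternatives the adjusted p ran from 7.00e-09 to 0.359. With 1 library left out at a time, the log2 fold change stayed between 0.74 and 0.80. It was called without rhChemerin replicate 1 (adjusted p = 0.0266, edgeR) and without rhChemerin replicate 3 (adjusted p = 0.0247, edgeR). GALNT7 lies on chromosome 4 from 173168753 to 173323967 on the plus strand of GRCh38 (GENCODE release 29), and shares 394 and 98 of its 6865 exon bases with 2 genes on the opposite strand for which no counts were analysed here. The strand setting of the counting was not given in the sources used here.

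GALNT10, the other transferase that prefers glycopeptides, spans chromosome 5 from 154190730 to 154420984. FPKM values of the gene were 19.9, 20.6 and 23.8 in Control replicates 1 to 3 and 20.6, 24.1 and 30.9 in rhChemerin replicates 1 to 3. Replicate 3 was the highest of its group in both groups, and the groups overlapped. The log2 fold change of 0.37 ± 0.19 (SE; edgeR adjusted p = 0.270) was 0.14 without rhChemerin replicate 3 and 0.52 without rhChemerin replicate 1. MFAP3 on the same strand, with 1653 to 2159 counts per library, shares 121 of the 10496 exon bases of GALNT10.

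GALNT2, on chromosome 1 from 230057990 to 230282124, had 57.5, 60.1 and 60.7 FPKM in Control replicates 1 to 3 and 71.4, 72.8 and 48.5 FPKM in rhChemerin replicates 1 to 3. Thus 2 rhChemerin libraries were above and 1 was below all Control libraries. The log2 fold change over all libraries was 0.23 ± 0.13 (SE; edgeR adjusted p = 0.319). Without rhChemerin replicate 3 it was 0.36 and passed the threshold (adjusted p = 0.0443, edgeR). GALNT2 has 1029 of its 7743 exon bases under an opposite-strand gene that was not analysed here. GALNT1, on chromosome 18 from 35581117 to 35711834, had 9.45 to 11.2 FPKM in Control and 10.2 to 11.7 FPKM in rhChemerin libraries. Its groups overlapped, with a log2 fold change of 0.23 ± 0.12 (SE; edgeR adjusted p = 0.300).

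With all libraries, the remaining 4 transferases, like GALNT10, GALNT2 and GALNT1, gave no difference beyond the spread between libraries. GALNT11, on chromosome 7 from 152025674 to 152122347, had 7.17 to 7.67 FPKM in Control cells and 7.37, 6.65 and 4.89 in rhChemerin replicates 1 to 3. An opposite-strand gene not analysed here shares 154 of its 8295 exon bases. GALNT11 had a log2 fold change of -0.11 ± 0.13 (SE; edgeR adjusted p = 0.629), and 0.01 without rhChemerin replicate 3, which was the lowest library. GALNT6, on chromosome 12 from 51351247 to 51392867, had 3.36, 4.85 and 6.41 FPKM in rhChemerin replicates 1 to 3, a range that encloses the 4.99 to 6.20 FPKM of the Control libraries. SLC4A8 on the opposite strand, with 279 to 332 counts per library, shares 392 of its 7347 exon bases. GALNT6 gave a log2 fold change of -0.01 ± 0.25 (SE; edgeR adjusted p = 0.985), and it ran between -0.32 and 0.21 with 1 library left out, with the lower value without rhChemerin replicate 3 and the higher without rhChemerin replicate 1. The genes GALNT3 (chromosome 2 from 165747591 to 165794682) and GALNT5 (chromosome 2 from 157257598 to 157314211) gave log2 fold changes of -0.36 ± 0.56 (SE; edgeR adjusted p = 0.722) and -0.22 ± 0.56 (SE; edgeR adjusted p = 0.829). Their direction turned without Control replicate 3 for GALNT3 (0.40) and without rhChemerin replicate 3 for GALNT5 (0.17). The Control counts of GALNT3 were 25, 16 and 63, and the part of depth in these standard errors was not tested.

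Both genes of the core 1 pair had log2 fold changes below 0, and neither passed the test. C1GALT1, on chromosome 7 from 7156934 to 7248651, had 4.84, 4.95 and 4.92 FPKM in Control replicates 1 to 3 and 4.41, 4.49 and 3.47 FPKM in rhChemerin replicates 1 to 3. All 3 rhChemerin libraries were below all 3 Control libraries, also on CPM scaled by TMM, an adjustment for the makeup of each library. On that scale the groups were barely apart, with rhChemerin replicate 2 at 37.3 and Control replicate 1 at 37.7. The log2 fold change was -0.12 ± 0.10 (SE; edgeR adjusted p = 0.463), -0.25 with library size only and -0.06 without rhChemerin replicate 3. C1GALT1C1, on chromosome X from 120625793 to 120630150, had 15.9, 15.0 and 17.0 FPKM in Control replicates 1 to 3 and 13.8, 15.9 and 12.4 FPKM in rhChemerin replicates 1 to 3. Its groups overlapped, and the log2 fold change was -0.06 ± 0.11 (SE; edgeR adjusted p = 0.752), or -0.19 with library size only. With library size only the median of all genes was -0.12, against 0.01 with TMM. The related gene C1GALT1C1L had 9 to 31 counts per library, against 836 to 1109 for C1GALT1C1.

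The balance of chaperone and enzyme was compared as a ratio within each library, which no scaling factor changes. The FPKM of C1GALT1C1 was 3.30, 3.03 and 3.46 times that of C1GALT1 in Control replicates 1 to 3 and 3.12, 3.54 and 3.56 times in rhChemerin replicates 1 to 3. The ranges overlapped, and the mean log2 ratio was 1.70 ± 0.10 (SD, n = 3) in Control and 1.77 ± 0.11 (SD, n = 3) in rhChemerin cells (exact two-sided permutation test, p = 0.50). With 3 libraries a group this test cannot go below 0.10.

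**Figure D2:**
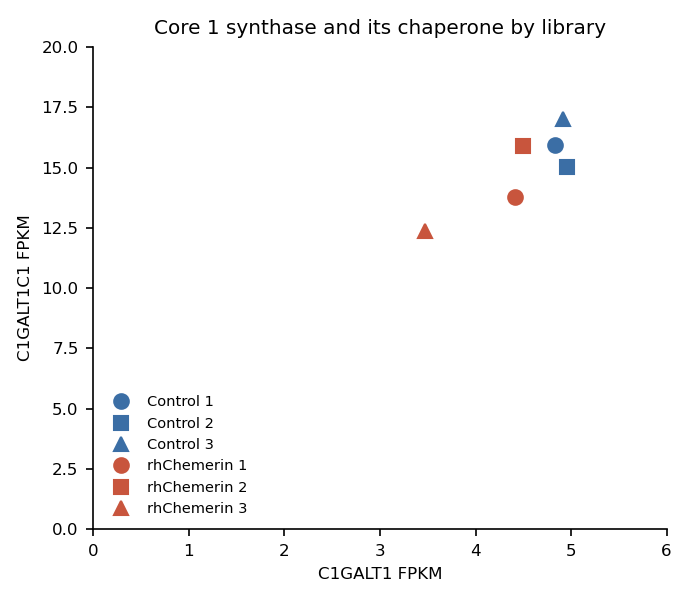
FPKM of C1GALT1C1 (vertical axis) against that of C1GALT1 (horizontal axis) in each of the 6 libraries, with both axes from 0. The rhChemerin libraries lie to the left of the Control libraries, at 3.47 to 4.49 against 4.84 to 4.95 FPKM of C1GALT1, and rhChemerin replicate 3 is the lowest on both axes.

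Over the 10 genes, 0 passed the threshold with edgeR, against 0.0301% of all tested genes, and 1 (GALNT7, higher) had an unadjusted p under 0.05, against 22.8% of all tested genes, 11.4% higher and 11.4% lower. DESeq2 called 1 of 10, again GALNT7, against 9.05% of the genes with an adjusted p, 3.75% higher and 5.30% lower. limma on log2(FPKM + 1) called GALNT7 as well (adjusted p = 0.0493), and on log2(FPKM + 0.1) it called 0. The groups did not overlap in 2 of 10 genes (GALNT7 higher, C1GALT1 lower), against 32.5% of all tested genes on CPM scaled by TMM, 16.5% higher and 16.0% lower. These counts of members are near or under the background. The log2 fold change was above 0 in 4 genes, against 51.7% of all tested genes, and below 0 in 6, with a median of -0.04, beside 0.01 over all tested genes.

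**Figure D3:**
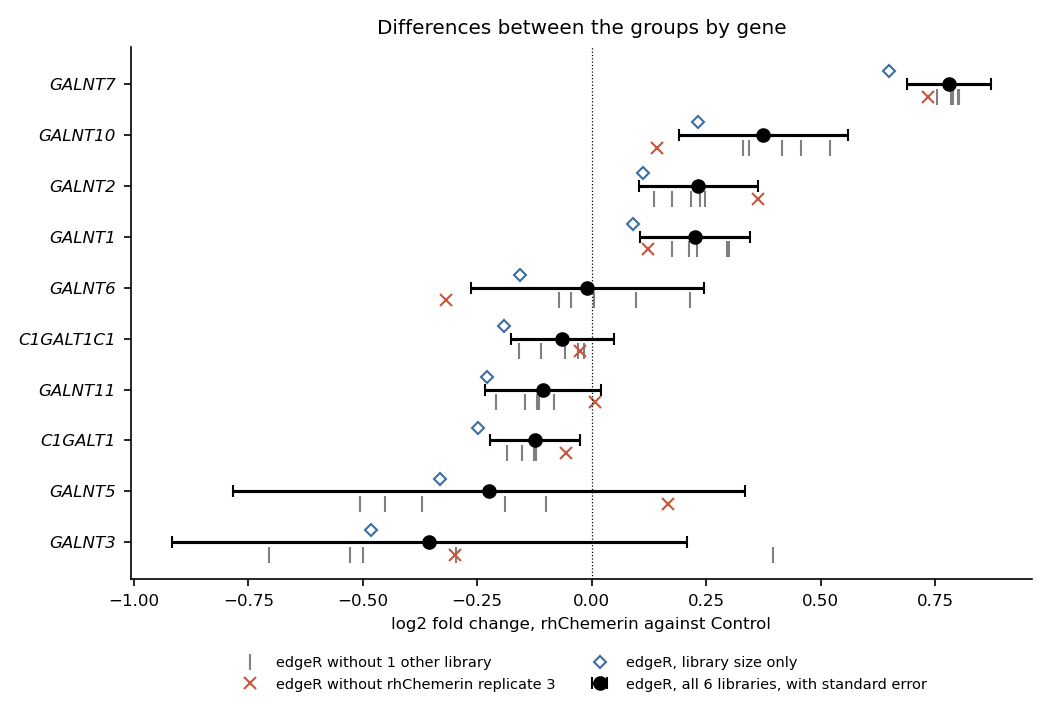
Log2 fold change of each gene, rhChemerin against Control (horizontal axis), from edgeR with all libraries (black, with the standard error), with each library left out (grey ticks, red cross for rhChemerin replicate 3) and with library size only (blue). GALNT7 lies between 0.65 and 0.80 in all of them, while GALNT6 runs from -0.32 to 0.21 and GALNT3 from -0.71 to 0.40.

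The 8 transferases were then added up per library to describe how their transcripts divide among the isoenzymes, including GALNT7 and GALNT10 and without GALNT12. Their summed FPKM was 102, 107 and 113 in Control replicates 1 to 3 and 118, 124 and 107 in rhChemerin replicates 1 to 3. The groups overlapped through rhChemerin replicate 3. The difference of 9.28 FPKM was not beyond the spread between libraries (107 ± 5.33 against 117 ± 8.64, SD, n = 3; exact two-sided permutation test, p = 0.20). Rescaled with the TMM factors it was 19.3, with no overlap (exact two-sided permutation test, p = 0.10, its lower limit). Rescaled to the same total in every library it was 18.97 TPM (exact two-sided permutation test, p = 0.40), a unit whose size cannot be set beside the FPKM differences.

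GALNT2 made up 56.2%, 56.2% and 53.8% of this sum in Control replicates 1 to 3 and 60.5%, 58.5% and 45.2% in rhChemerin replicates 1 to 3. The means were 55.4% ± 1.41 and 54.7% ± 8.36 (SD, n = 3; exact two-sided permutation test, p = 1.0). Without rhChemerin replicate 3 the difference between the groups turned from -0.689 to 4.10 percentage points. In that library GALNT10 took 28.8% of the sum, against 17.4% to 21.1% in the other 5. The share of GALNT7 was 2.84% to 2.97% in Control and 3.94% to 4.53% in rhChemerin libraries, and that of GALNT11 6.47% to 7.18% and 4.55% to 6.25%. GALNT2, GALNT10 and GALNT1 together held 84.8% to 86.7% in every library.

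**Figure D4:**
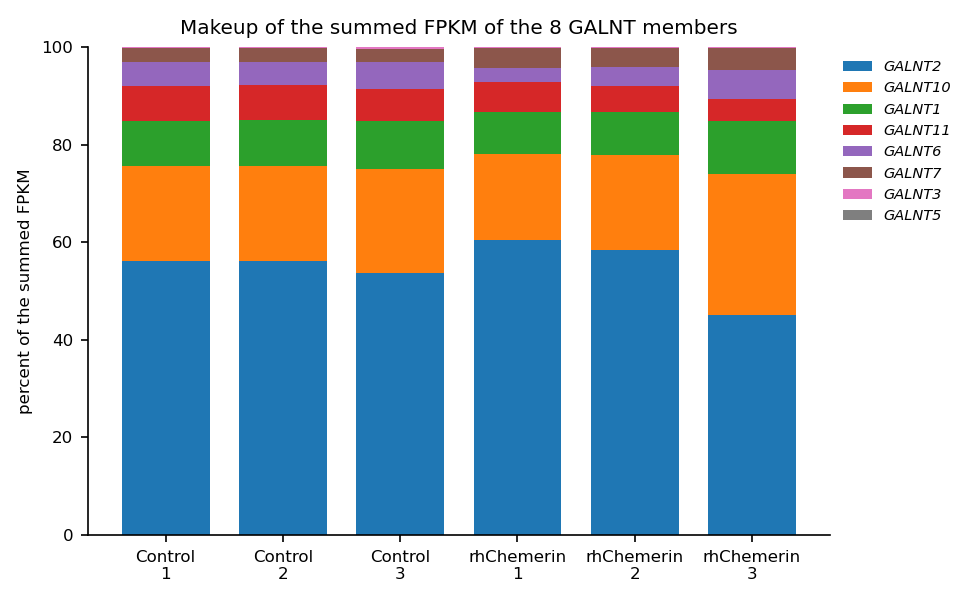
Percent of the summed FPKM of the 8 transferases (vertical axis) that each gene holds in each library (bars). GALNT2 holds 53.8% to 60.5% in 5 libraries and 45.2% in rhChemerin replicate 3, where GALNT10 holds 28.8%.

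The other genes of the pathway were taken from 5 lists with 48 genes, of which 27 were tested. edgeR called 0 of the 27, with 8 at an unadjusted p under 0.05 (4 higher and 4 lower), against 22.8% of all tested genes. DESeq2, which filters otherwise, called 3 (GALNT12, GALNT9 and MUC1) of the 34 to which it gave an adjusted p, against 9.05%. On TMM-scaled CPM the groups did not overlap in 4 of the 27 with higher and 5 with lower values, against 16.5% and 16.0% of all tested genes. These counts are near the background. The median log2 fold change of the 27 was 0.02.

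Of the 12 other GalNAc transferases listed, 7 were tested, 4 higher and 3 lower, and 4 had at most 14 counts in any library and were not tested. GALNT12, a starter enzyme known from the colon, had 6.18, 5.17 and 6.58 FPKM in Control replicates 1 to 3 and 9.47, 12.5 and 11.5 FPKM in rhChemerin replicates 1 to 3. All 3 rhChemerin libraries were above all Control libraries, with a log2 fold change of 1.03 ± 0.16 (SE; edgeR adjusted p = 0.0692, DESeq2 adjusted p = 3.47e-06). With 1 library left out it stayed between 0.93 and 1.15, and it was called without rhChemerin replicate 1 (edgeR adjusted p = 0.0266) and without rhChemerin replicate 3 (edgeR adjusted p = 0.0334). GALNT9, known as a brain isoenzyme, went the other way, with 1.16 ± 0.290 FPKM (SD, n = 3) in Control cells and 0.328 ± 0.0459 FPKM (SD, n = 3) in rhChemerin cells, without overlap, on 35 to 172 counts per library. Its log2 fold change was -1.69 ± 0.30 (SE; edgeR adjusted p = 0.0752, DESeq2 adjusted p = 4.93e-05), and between -1.81 and -1.47 with 1 library left out. It was called without rhChemerin replicate 1 (edgeR adjusted p = 0.0464) and without rhChemerin replicate 3 (edgeR adjusted p = 0.0491), and over all alternatives the adjusted p of both GALNT12 and GALNT9 reached 0.359. GALNT4 had only 6 to 26 counts per library, with a log2 fold change of 1.45 ± 0.53 (SE; edgeR adjusted p = 0.171), without overlap. GALNT13, named after its values were seen, had 2 to 38 counts per library and a log2 fold change of -1.61 ± 0.72 (SE; edgeR adjusted p = 0.234), without overlap, which was -2.81 without rhChemerin replicate 1. The coding gene of GALNT4 lies within a transcript shared with POC1B, so its reads may be split between them. With all 19 transferases of the tables in the sum, the difference between the groups was 13.6 FPKM (exact two-sided permutation test, p = 0.20).

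Next come the enzymes that lengthen, branch or cap the chain. Of 7 listed core 2, core 3 and extension enzymes 3 were tested, and none of these had groups without overlap. GCNT1, which makes the core 2 branch, had 4.03 to 5.34 FPKM in Control and 4.09 to 6.93 FPKM in rhChemerin libraries (log2 fold change 0.44 ± 0.18, SE; edgeR adjusted p = 0.206). GCNT4 gave -0.24 ± 0.38 (SE) and B4GALT5, a galactosyltransferase at 40.6 to 47.9 FPKM, 0.00 ± 0.10 (SE) on the log2 scale. Of 6 sialyltransferases that cap O-glycans 5 were tested, 2 higher and 3 lower. ST6GALNAC3 had a log2 fold change of -0.61 ± 0.24 (SE; edgeR adjusted p = 0.194) and ST6GALNAC2 -0.82 ± 0.48 (SE; edgeR adjusted p = 0.336). ST6GALNAC2 was at -1.44 without rhChemerin replicate 1 and at -0.42 without rhChemerin replicate 3. ST3GAL1, which caps core 1, was lower in every rhChemerin library than in any Control library on TMM-scaled CPM, with a log2 fold change of -0.20 ± 0.11 (SE; edgeR adjusted p = 0.325).

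All 8 genes that supply UDP-GalNAc and UDP-galactose were tested, 5 higher and 3 lower. GNPNAT1, an acetyltransferase of the hexosamine pathway, had a log2 fold change of 0.45 ± 0.18 (SE; edgeR adjusted p = 0.205), with every rhChemerin library above every Control library on TMM-scaled CPM. Without rhChemerin replicate 3, the highest library, it was 0.22. The same pathway's PGM3 gave 0.18 ± 0.09 (SE) and GFPT1, its first enzyme, -0.11 ± 0.08 (SE), both without overlap on the same scale. Of 15 listed carrier proteins only 4 were tested, and 10 had at most 15 counts in any library. MUC1, the transmembrane mucin of endometrial epithelium, had 14.4, 13.6 and 10.2 FPKM in Control replicates 1 to 3 and 9.85, 6.91 and 6.79 FPKM in rhChemerin replicates 1 to 3. Its log2 fold change was -0.57 ± 0.17 (SE; edgeR adjusted p = 0.135, DESeq2 adjusted p = 0.0404). On TMM-scaled CPM its groups overlapped. Without rhChemerin replicate 1 MUC1 was called (log2 fold change -0.74; edgeR adjusted p = 0.0467), and over all alternatives the adjusted p ran from 0.0404 to 0.398. MUC20 gave -1.19 ± 0.50 (SE; edgeR adjusted p = 0.216) on 10 to 82 counts, without overlap, and PODXL 0.87 ± 0.58 (SE; edgeR adjusted p = 0.390). PODXL was set by rhChemerin replicate 3 at 99.0 FPKM, and without that library its log2 fold change was -0.02.

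**Figure D5:**
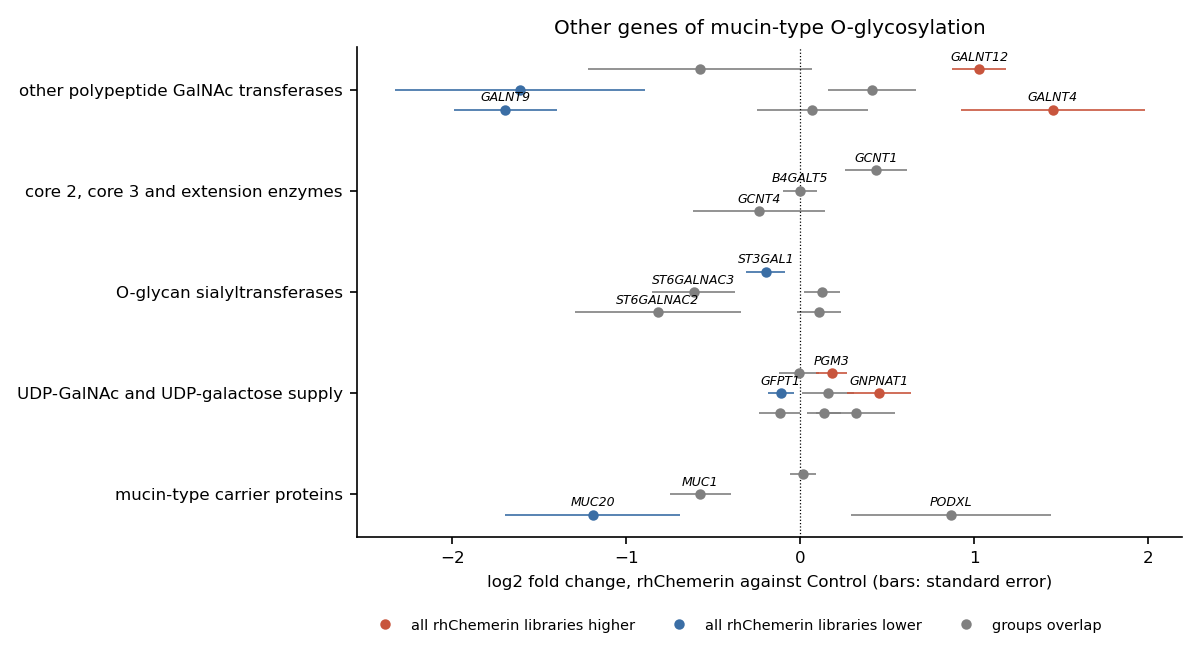
Log2 fold change with its standard error (horizontal axis) of the 27 tested genes in the 5 other lists (rows), coloured by whether all rhChemerin libraries lie above (red) or below (blue) all Control libraries on TMM-scaled CPM. Among the GalNAc transferases, GALNT12 at 1.03 and GALNT4 at 1.45 lie to the right and GALNT9 at -1.69 and GALNT13 at -1.61 to the left.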

How the data were processed

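RNA of 6 libraries of 12Z cells was sequenced as paired-end reads on an Illumina instrument. The authors trimmed reads with fastp, aligned them to GRCh38.p13 with HISAT2 and deposited HTSeq counts per gene, without normalization, and FPKM of the same 16279 genes. All 79491 FPKM values on at least 10 counts equalled the count over a fixed length and the library total within 0.1%. The strand setting is not given in the sources used here.

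Counts were tested in R 4.3.3 with edgeR 4.0.16 (TMM, filterByExpr, quasi-likelihood test, Benjamini-Hochberg over 13311 genes). Standard errors are the log2 fold change over the root of F. DESeq2 1.42.0 and limma 3.58.1 were alternatives, with other scalings, filters (no filter, mean count of at least 20), a replicate block and each library left out. Single values were compared by exact permutation with SciPy 1.17.1. The tests were checked on simulated counts of 13311 genes, 200 of them changed. The changed genes had a mean count of at least 20, and their median absolute log2 fold change in edgeR was 2.00. Of the 200, edgeR recovered 190 with 14 false calls, and DESeq2 191 with 51 false calls. With limma on log2(FPKM + 1) 187 were recovered, with 12 false calls. Recovery of differences as small as those of the 10 genes, where the largest was 0.78 (GALNT7), was not tested. Members and lists were chosen with earlier results of these data known. All members are named, and of each other list the 3 genes with the smallest p.

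1 count is 0.0282 CPM in the smallest library. Libraries of a group differed by more than sampling noise, with a chi-square of at least 13.6 per degree of freedom. Promoter windows come from RefSeq (GRCh38.p14), and positions of genes from GENCODE release 29. Proteins and glycans were not analysed here.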

Additional observations from a re-analysis of the deposited data

How the results depend on the processing

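Of the 10 genes, 0 were called by edgeR with all libraries, and 1, GALNT7, without a filter on low counts, with DESeq2 and with limma on log2(FPKM + 1). With 1 library left out the count ran from 0 to 2, with 1 without rhChemerin replicate 1 and 2 without rhChemerin replicate 3 (GALNT2 and GALNT7). Over all genes edgeR called 4 of 13311, and 17 of 16279 without a filter, while DESeq2 called 1302 of 14382. There were 179 with limma on log2(FPKM + 1), 23 on log2(FPKM + 0.1), 1 with the replicate block and 0 to 844, of 13450 to 13531 genes, with 1 library left out, with 844 without rhChemerin replicate 1 and 415 without rhChemerin replicate 3. Of the 27 other pathway genes, 0 were called by edgeR and 2 by limma on log2(FPKM + 1), while DESeq2 called 3 of 34. With 1 library left out edgeR called 0 to 3 of the 27, with 3 without rhChemerin replicate 1 and 2 without rhChemerin replicate 3. Without a library fewer samples enter, and the cause of these calls was not tested. The genes whose groups did not overlap numbered 2, and 2 to 5 with 1 library left out, with 4 without Control replicate 3, against 42.9% of all tested genes, and 5 without rhChemerin replicate 1, against 50.2%.

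The difference in the GALNT2 share was -0.689 percentage points, and ran from -3.60 to 4.10 with 1 library left out, the last without rhChemerin replicate 3. Directions also turned among genes that no setting called. With 1 library left out the log2 fold change ran from -0.71 to 0.40 for GALNT3, -0.51 to 0.17 for GALNT5, -0.32 to 0.21 for GALNT6, -0.21 to 0.0072 for GALNT11, -0.55 to 0.090 for GCNT4, -0.065 to 0.044 for B4GALT5 and -0.020 to 1.26 for PODXL. B4GALT5 was 0.0036 without a filter on low counts. The other 4 transferases and the core 1 pair kept their direction in all alternatives run. The mean summed FPKM stayed higher with rhChemerin, by 6.72 without Control replicate 1 and 5.33 without rhChemerin replicate 2 (exact two-sided permutation test, p = 0.40 for each). It was higher by 4.47 without GALNT2 in the sum, a setting chosen after seeing the data (exact two-sided permutation test, p = 0.50). In TPM, with every library rescaled to the same total, it was higher by 18.97 (exact two-sided permutation test, p = 0.40).

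With the replicate number as a block, edgeR called 0 of the 10 genes and 0 of the pathway genes. Same-numbered libraries deviated together with correlations of 0.241, 0.0015 and 0.247, and not every library correlated best with its own number, so the numbers were not taken as pairs. GALNT3 and GALNT5 rest on 6 to 63 counts per library. Leaving out rhChemerin replicate 3 also took the log2 fold change of GALNT1 from 0.23 to 0.12, of PGM3 from 0.18 to 0.11 and of MUC20 from -1.19 to -0.79. Leaving out rhChemerin replicate 2 took GALNT2 from 0.23 to 0.14, C1GALT1C1 from -0.06 to -0.16 and ST3GAL1 from -0.20 to -0.10, and leaving out Control replicate 3 took GFPT1 from -0.11 to -0.07.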
